A study of Mus musculus with 10 samples.

Results

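The 44 genes described here encode the core of the cell division cycle and its brakes: cyclins, cyclin-dependent kinases (CDKs) and their activators, the replication and nucleotide-synthesis machinery, mitotic regulators, and the Cip/Kip and INK4 families of CDK inhibitors. They were listed by symbol and not by a measured value, although earlier results of these data were known when the list was made. Each gene was read from the probe set that carried its symbol and no other, and where a gene had several such probe sets, the one with the highest mean over all arrays was used. A probe set of this kind was found for 42 of the 44 genes, out of 19938 genes with one in the whole table. Ccnb1, the gene of cyclin B1, had none, and the single probe set of Cdkn1a, which encodes the inhibitor p21, shared its annotation with another symbol, so no value is given for either. All 42 measured genes passed the filter on low values, a linear value of at least 50 on at least 5 of the 10 arrays.

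The values come from whole-transcript microarrays hybridised with RNA from the epidermis of 3 day-old mice, which was separated from the dermis with dispase, with 5 ILK-deficient and 5 ILK-expressing animals and 1 array per animal. ILK, integrin-linked kinase, is a scaffold protein of focal adhesions. Both genotypes came from crosses of Ilktm1Star mice, which carry floxed Ilk alleles, with Tg(KRT14-cre)1Amc/J mice, and all 10 animals were heterozygous for the KRT14-cre transgene. ILK-deficient animals were homozygous for floxed Ilk, and ILK-expressing animals were heterozygous for it, so the control epidermis also held Cre and had 1 floxed Ilk allele. The keratin 14 promoter drives Cre in keratinocytes, so that other cells of the sheet, such as melanocytes and immune cells, kept their Ilk gene. The animals were littermates, but which arrays shared a litter is not given in the sources used here. The question put to these genes was whether loss of ILK from neonatal keratinocytes came with a shift in the transcripts that drive or restrain division.

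A cell enters division when D-type cyclins with CDK4 or CDK6, and then E-type cyclins with CDK2, inactivate the retinoblastoma protein and release E2F factors, which switch on the genes of DNA replication. Transcripts for G2 and mitosis follow later in the cycle under FOXM1, MYB-related proteins and the MuvB complex, and are destroyed or silenced when cells leave the cycle. Cip/Kip inhibitors such as p27 hold CDK2 complexes, and INK4 inhibitors such as p16 and p15 hold CDK4 and CDK6. In epidermis, dividing cells sit in the basal layer and in the hair follicle, and suprabasal keratinocytes have left the cycle.

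The targeted gene was examined first. The Ilk probe set, which averages probes along the transcript and thus also those outside the excised exons, stood between 9.01 and 9.38 (log2) in ILK-expressing epidermis and between 8.75 and 9.07 in the ILK-deficient samples, which differed by -0.23 on the log2 scale (SE 0.0949, limma adjusted p = 0.253), so that it gives little check of the labels. Krt5 and Krt14, which define basal keratinocytes, and Krt10, which defines suprabasal ones, were detected on every array, with log2 values of at least 13.06. Pairs of arrays correlated over all probe sets with r between 0.967 and 0.991. The name that the labels give each animal opens with D on 7 arrays, with D' on ILK-expressing replicate 4 and ILK-deficient replicate 5, and with C' on ILK-expressing replicate 5; what the letters stand for is not stated.

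Because the members of a class moved together from animal to animal, as shown further on, the DNA just before their gene starts is given here. Windows from 250 bases before to 50 bases after the start, from RefSeq on mouse build GRCm38.p6, were at hand for 11 of the 15 listed G2 and mitosis genes (the missing entries are Ccna2, Cdc25c, Foxm1 and Aurkb) and for 10 of the 11 replication genes (the missing entry is Mcm4). They were searched on both strands for the letters of the cell cycle genes homology region (CHR), TTTGAA, which the MuvB complex recognises, for the CCAAT box, CCAAT, which the factor NF-Y recognises, and for the E2F forms TTTCCCGC, TTTCGCGC, TTTGCCGC and TTTGGCGC. Matches to different E2F forms may overlap one another. TTTGAA was present in the windows of 8 of the 11 mitotic genes (72.7%) against 17.9% of all 32851 windows, and CCAAT in all 11 (100%) against 37.4%. In the replication windows TTTGAA was present in 1 of 11 (9.09%), but CCAAT in 9 of 11 (81.8%), so CCAAT was frequent in both classes. The E2F letters were present in 5 of 11 windows of the replication genes (45.5%) against 2.26% of all windows. Of the mitotic windows, 1 of 11 (9.09%) held them. For TTTGAA and the E2F letters, a like contrast was seen in cell cycle genes outside the 44. TTTGAA was present in 68.3% of 41 windows of other mitosis genes and in 14.3% of 28 windows of other replication genes. For the E2F letters the shares were 4.88% and 32.1%, and for CCAAT 70.7% and 50%, in the same order. A match of letters is a description of these windows and no evidence of binding in this tissue.

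The 150 bases before the start follow for the mitotic members in which this stretch holds TTTGAA, with TTTGAA and CCAAT matches on either strand in capitals. They lie at chr4:118437344-118437493 on the minus strand for Cdc20, chr10:69352913-69353062 on the minus strand for Cdk1, chr7:135716380-135716529 on the minus strand for Mki67 and chr11:99024190-99024339 on the minus strand for Top2a.
Cdc20: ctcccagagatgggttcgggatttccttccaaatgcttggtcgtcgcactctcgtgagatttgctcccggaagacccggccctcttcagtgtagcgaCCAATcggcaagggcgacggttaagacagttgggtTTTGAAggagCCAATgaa
Cdk1: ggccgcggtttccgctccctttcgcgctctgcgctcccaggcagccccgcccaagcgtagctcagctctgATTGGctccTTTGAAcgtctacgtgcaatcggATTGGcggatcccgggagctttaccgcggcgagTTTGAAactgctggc
Mki67: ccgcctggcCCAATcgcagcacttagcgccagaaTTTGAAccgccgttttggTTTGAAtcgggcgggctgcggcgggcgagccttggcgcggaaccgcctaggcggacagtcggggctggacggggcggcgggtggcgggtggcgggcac
Top2a: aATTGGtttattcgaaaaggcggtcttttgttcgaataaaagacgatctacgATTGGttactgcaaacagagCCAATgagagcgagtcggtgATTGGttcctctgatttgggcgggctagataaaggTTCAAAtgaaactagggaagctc

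For comparison, the same stretch is given for the replication members in which it holds an E2F form, here with the E2F matches alone in capitals. They lie at chr11:98908001-98908150 on the plus strand for Cdc6, chr8:75109359-75109508 on the plus strand for Mcm5 and chr1:128359706-128359855 on the minus strand for Mcm6. Mcm6 carries 3 matches, of which a pair overlaps in the first run of capitals.
Cdc6: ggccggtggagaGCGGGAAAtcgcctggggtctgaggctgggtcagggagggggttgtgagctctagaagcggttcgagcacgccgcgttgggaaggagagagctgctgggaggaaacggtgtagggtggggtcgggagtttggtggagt
Mcm5: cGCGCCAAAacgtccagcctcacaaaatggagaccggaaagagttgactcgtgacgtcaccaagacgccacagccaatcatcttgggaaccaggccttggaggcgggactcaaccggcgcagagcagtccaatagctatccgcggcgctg
Mcm6: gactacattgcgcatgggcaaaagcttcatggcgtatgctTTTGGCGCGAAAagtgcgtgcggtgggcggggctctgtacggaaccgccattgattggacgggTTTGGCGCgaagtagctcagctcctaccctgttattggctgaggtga

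Across the 42 genes, the mean difference between the genotypes was small, and 1 gene passed the test. Cdkn1b, which encodes the CDK inhibitor p27, was higher in ILK-deficient epidermis, and no member was lower, by limma at a Benjamini-Hochberg adjusted p under 0.05, with 32046 probe sets in the fit. That is 1 of 42 called higher against 2.81% of all probe sets tested, and 0 of 42 called lower against 0.97%. At an unadjusted p under 0.05 there were 5 of 42 members, 4 higher (Cdkn1b, Cdk2, Ccnd3 and Ccnd2) and 1 lower (Ccne1), against 15.9% of all probe sets in either direction. For 1 of 42 members the arrays of one genotype were all apart from those of the other, against 6.33% of all. The median log2 fold change of the 42 was -0.02, beside 0.0031 over all probe sets. The 95% confidence interval of the difference lay within 1.5-fold in either direction for 38 of 42 members, compared with 82.6% of all probe sets; the others were Cdkn1b, Cdk2, Ccne1 and Tyms.

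**Figure D1:**
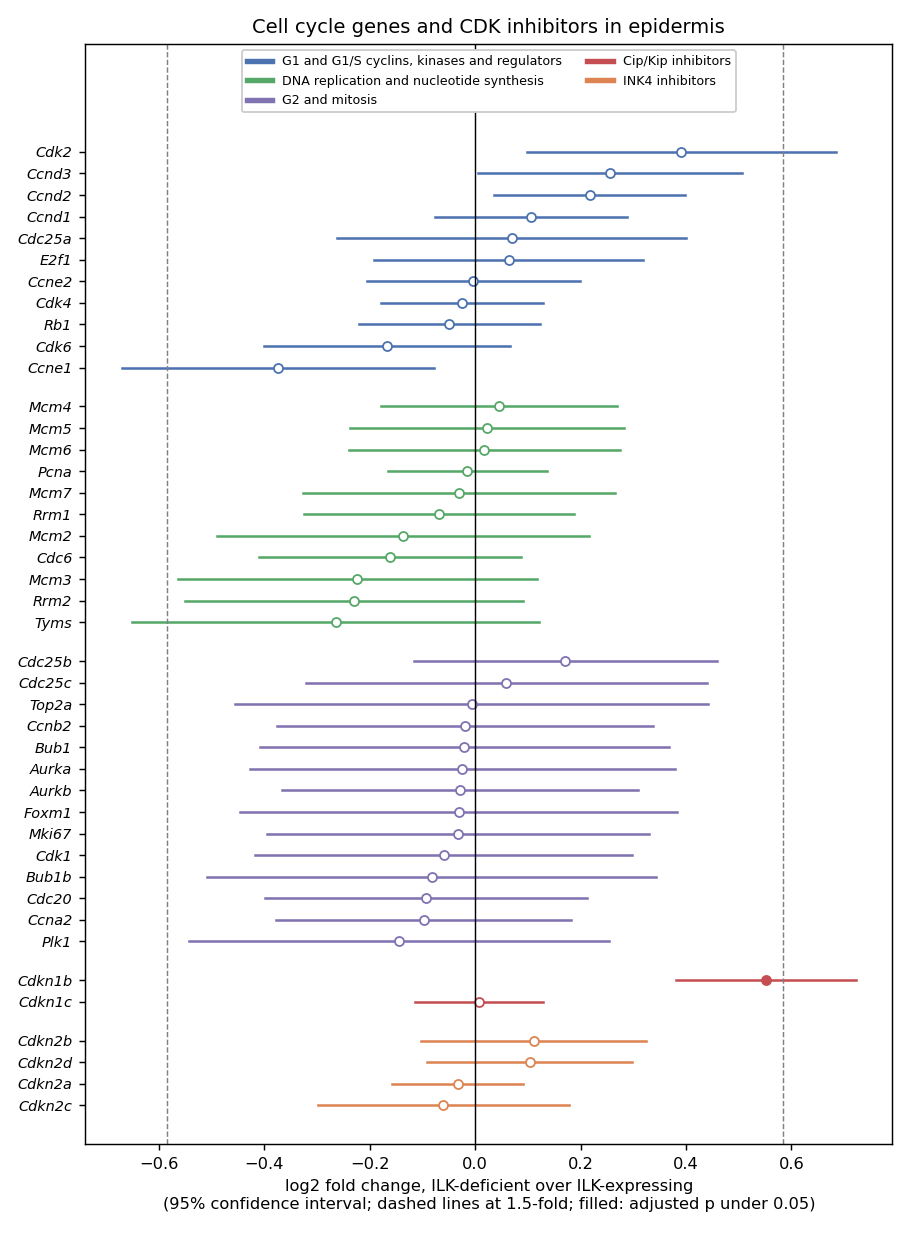
Log2 fold change of each of the 42 measured genes, ILK-deficient over ILK-expressing, with its 95% confidence interval and grouped by class; dashed lines mark 1.5-fold and a filled point marks an adjusted p under 0.05. Cdkn1b is the single filled point, at 0.55, and the intervals of all 14 mitotic genes cross 0 and stay within the dashed lines.

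Cdkn1b restrains entry into S phase and accumulates in keratinocytes that leave the cycle. Its log2 values were 9.90, 9.67, 9.89, 9.84 and 9.96 in ILK-expressing replicates 1 to 5 and 10.28, 10.34, 10.59, 10.36 and 10.45 in ILK-deficient replicates 1 to 5. Every ILK-deficient array lay above every ILK-expressing array, with ILK-deficient replicate 3 the highest. The means were 9.85 ± 0.111 and 10.40 ± 0.12 (SD, n = 5 each), a log2 fold change of 0.55 (SE 0.0771, 95% confidence interval 0.38 to 0.72), or 1.47-fold higher, with a limma adjusted p of 0.00537; the exact two-sided permutation p was 0.00794, the smallest that 5 arrays against 5 can give. Over 20 alternative settings the adjusted p ran from 0.00333 to 0.0541, and the call was lost in 1, the fit on the 7 arrays named D (log2 fold change 0.57, adjusted p = 0.0541). A second Cdkn1b probe set, with lower values, gave a log2 fold change of 0.37 with overlapping genotypes (SE 0.192, limma adjusted p = 0.404). Taken singly, 1 of the gene's pair of probe sets thus passed. The call was kept when the pair was averaged.

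The 150 bases before the Cdkn1b start, at chr6:134920251-134920400 on the plus strand, are shown because it is the member that passed the test; they hold 1 CCAAT match, in capitals, and no TTTGAA or E2F form.
Cdkn1b: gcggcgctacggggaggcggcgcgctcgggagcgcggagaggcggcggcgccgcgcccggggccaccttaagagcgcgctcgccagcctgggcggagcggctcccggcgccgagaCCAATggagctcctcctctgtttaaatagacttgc

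The remaining inhibitors did not pass. Cdkn1c, the gene of p57, and Cdkn2a, the gene of p16 and p19Arf, gave mean values from 5.85 to 6.17 in both genotypes, close to the filter's minimum of 5.64 on the log2 scale, where small changes are hard to see, and their log2 fold changes were 0.01 and -0.03. Cdkn2b, the gene of the TGF-beta-responsive inhibitor p15, stood at 7.75, 7.88, 7.90, 7.93 and 8.09 in ILK-expressing replicates 1 to 5 and at 8.05, 8.00, 7.96, 7.80 and 8.30 in the ILK-deficient ones. These values overlapped, with the highest in ILK-deficient replicate 5 and the lowest in ILK-expressing replicate 1, and the log2 fold change was 0.11 (95% confidence interval -0.10 to 0.33, adjusted p = 0.703). Cdkn2d, the gene of p19Ink4d, was 6.94, 6.90, 7.06, 6.95 and 7.12 in ILK-expressing and 7.06, 6.96, 7.07, 7.39 and 6.99 in ILK-deficient epidermis. The genotypes overlapped here too, apart from a single high array, ILK-deficient replicate 4, and the log2 fold change was 0.10 (95% confidence interval -0.09 to 0.30, adjusted p = 0.692). Cdkn2c, the gene of p18, gave -0.06 (95% confidence interval -0.30 to 0.18).

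Among the 11 genes of G1 and the G1/S transition, none passed the test; 6 had a log2 fold change above 0 and 5 below, with a median of 0.06. The D-type cyclins, which relay growth signals to CDK4 and CDK6, all had higher means in ILK-deficient epidermis. Ccnd2 measured 12.12, 12.24, 12.20, 12.06 and 11.90 in ILK-expressing and 12.36, 12.50, 12.23, 12.31 and 12.21 in ILK-deficient replicates. The overlap was confined to the top ILK-expressing array, replicate 2, which exceeded ILK-deficient replicates 3 and 5, and the log2 fold change was 0.22 (SE 0.0819, 95% confidence interval 0.04 to 0.40, adjusted p = 0.205). Ccnd3 measured 9.89, 9.70, 10.02, 9.52 and 9.63 in ILK-expressing and 9.89, 10.28, 10.11, 9.91 and 9.86 in ILK-deficient replicates. ILK-expressing replicate 3 was above ILK-deficient replicates 1, 4 and 5, ILK-expressing replicate 1 was above ILK-deficient replicate 5, and the log2 fold change was 0.26 (SE 0.113, 95% confidence interval 0.01 to 0.51, adjusted p = 0.3). For Ccnd1 it was 0.11 (95% confidence interval -0.08 to 0.29), while the kinases Cdk4 and Cdk6 gave -0.02 and -0.17.

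Cdk2 and its partner cyclin E1, which together drive the start of DNA replication, had mean differences of opposite sign. Cdk2 read 9.82, 9.80, 10.19, 9.62 and 9.96 in ILK-expressing and 10.15, 10.46, 9.91, 10.48 and 10.34 in ILK-deficient replicates. ILK-expressing replicate 3 was above ILK-deficient replicates 1 and 3, ILK-expressing replicate 5 was above ILK-deficient replicate 3, and the log2 fold change was 0.39 (SE 0.133, 95% confidence interval 0.10 to 0.68, adjusted p = 0.155), 1.31-fold. Ccne1 read 8.80, 8.87, 8.92, 8.72 and 9.18 in ILK-expressing and 8.49, 8.87, 8.20, 8.71 and 8.34 in ILK-deficient replicates. ILK-deficient replicate 2 lay among the ILK-expressing values while replicates 1, 3, 4 and 5 were below all of them, and the log2 fold change was -0.37 (SE 0.134, 95% confidence interval -0.67 to -0.08, adjusted p = 0.179). Neither difference passed the test after adjustment in any of the 20 alternatives, in which the adjusted p ran from 0.0664 to 0.556 for Cdk2 and from 0.0736 to 0.543 for Ccne1. Ccne2, the second E-type cyclin, gave 0.00 (95% confidence interval -0.21 to 0.20), and the CDK phosphatase Cdc25a, the transcription factor E2f1 and the pocket protein Rb1 gave 0.07, 0.06 and -0.05.

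**Figure D2:**
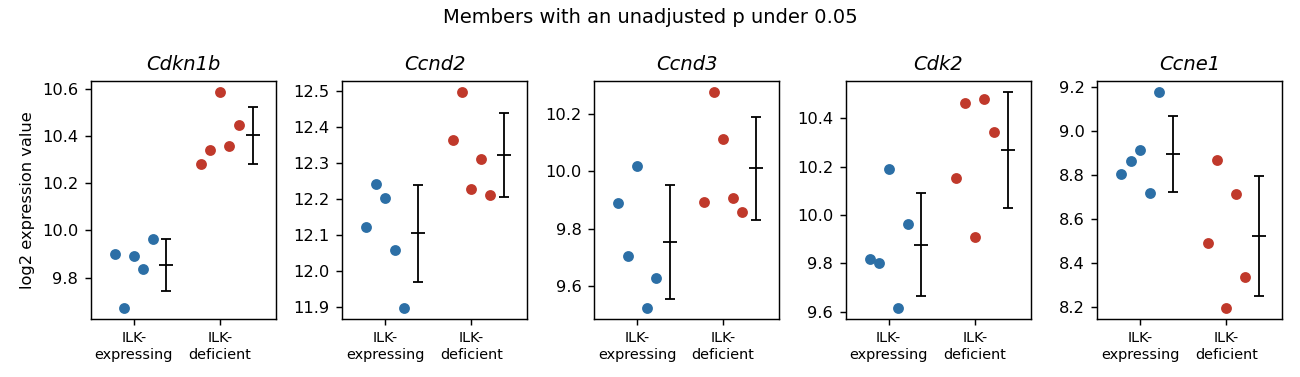
Log2 expression values of the 5 genes with an unadjusted p under 0.05, 1 point per array, with the mean and SD of 5 arrays beside each genotype (each panel has its own vertical axis). The genotypes are fully apart for Cdkn1b and overlap for Ccnd2, Ccnd3, Cdk2 and Ccne1.

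The 11 genes of DNA replication and nucleotide synthesis did not pass either, with 0 at an unadjusted limma p under 0.05, and 8 of them had a log2 fold change below 0 (median -0.07, range -0.26 to 0.05). The largest difference was that of Tyms, thymidylate synthase, which measured 9.95, 10.03, 10.03, 9.87 and 10.09 in ILK-expressing and 9.82, 9.99, 9.18, 10.24 and 9.42 in ILK-deficient replicates. The ILK-deficient values held both the lowest and the highest of the 10 arrays (replicates 3 and 4), and the log2 fold change of -0.26 (SE 0.174, 95% confidence interval -0.65 to 0.12) had an adjusted p of 0.564. Rrm2, the regulatory subunit of ribonucleotide reductase, measured 10.08, 9.83, 9.98, 9.57 and 9.89 in ILK-expressing and 9.40, 9.89, 9.36, 10.02 and 9.54 in ILK-deficient replicates. Replicates 1, 3 and 5 of the ILK-deficient arrays lay below all ILK-expressing arrays, replicates 2 and 4 did not, and the log2 fold change was -0.23 (SE 0.145, adjusted p = 0.536). The 6 subunits of the MCM2-7 helicase, which unwinds DNA at the fork, ranged from -0.22 (Mcm3) to 0.05 (Mcm4). Pcna, the sliding clamp of DNA polymerase, gave -0.01 (95% confidence interval -0.17 to 0.14), the licensing factor Cdc6 gave -0.16, and Rrm1, the catalytic subunit of ribonucleotide reductase, gave -0.07.

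No mitotic gene passed, and the mean difference was small for the markers most used to count dividing cells. Mki67, the gene of the Ki-67 antigen, gave a log2 fold change of -0.03 (95% confidence interval -0.39 to 0.33), Top2a, a topoisomerase that untangles chromosomes, gave -0.01 (-0.46 to 0.44), and Cdk1, the mitotic kinase, gave -0.06 (-0.42 to 0.30). A second Top2a probe set, with lower values and not counted below, gave 0.28 (95% confidence interval 0.01 to 0.54). Its unadjusted limma p was 0.0415 and its adjusted p 0.284, so it did not pass either. Of the 14 measured genes 12 were below 0 and 2 above, with a median of -0.03, a smallest limma adjusted p of 0.643 and 0 genes at an unadjusted p under 0.05. That smallest p belonged to Cdc25b, the phosphatase that first activates CDK1, with 9.17, 8.95, 9.30, 8.96 and 9.31 in ILK-expressing and 9.47, 9.30, 8.92, 9.60 and 9.26 in ILK-deficient replicates. Its genotypes overlapped widely, and the log2 fold change was 0.17 (SE 0.13, 95% confidence interval -0.12 to 0.46). The polo-like kinase Plk1 had the lowest value, -0.14 (95% confidence interval -0.54 to 0.25), and the spindle kinases Aurka and Aurkb, the checkpoint genes Bub1 and Bub1b, the mitotic factor Foxm1 and the cyclins Ccnb2 and Ccna2 lay between -0.10 and -0.02. Cdc20, which activates the anaphase-promoting complex, gave -0.09, and the phosphatase Cdc25c 0.06. In whole epidermis fewer cells of a type and less RNA per cell cannot be told apart.

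What differed in this class was the spread between animals. Mki67 measured 11.69, 11.53, 11.32, 11.21 and 11.30 in ILK-expressing and 11.69, 11.31, 10.997, 11.80 and 11.10 in ILK-deficient replicates 1 to 5. Cdk1 measured 10.55, 10.32, 10.36, 10.09 and 10.43 in ILK-expressing and 10.21, 10.43, 9.93, 10.84 and 10.04 in ILK-deficient replicates. Top2a measured 10.60, 10.45, 10.30, 10.18 and 10.56, and 10.60, 10.62, 9.83, 10.99 and 10.01. In each of these genes ILK-deficient replicate 4 was the highest of the 10 arrays and ILK-deficient replicate 3 the lowest. Over the 14 mitotic genes, ILK-deficient replicate 4 was the highest array for 14, with a median deviation of 0.45 from a gene's mean over all arrays, and ILK-deficient replicate 3 was the lowest for 12, with a median deviation of -0.42. ILK-deficient replicate 5 had a median of -0.29 and ILK-expressing replicate 4 of -0.24, and the latter was the lowest ILK-expressing array for 13 of 14. The medians of the other 6 arrays lay between 0.03 and 0.20.

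The SD over 5 animals was larger in ILK-deficient than in ILK-expressing epidermis for 14 of 14 mitotic genes (median SD 0.37 against 0.171) and for 11 of 11 replication genes (0.251 against 0.126), whereas it was larger for 37.5% of all probe sets tested, with median SDs of 0.133 and 0.161. All ILK-expressing values lay inside the ILK-deficient range for 13 of 14 mitotic and 8 of 11 replication genes, against 12.3% of all probe sets. The G1 genes showed this less, with a larger SD in 8 of 11 (median 0.182 against 0.157). The genes of a class moved together across the arrays, so their number adds no replicates; the comparison of spreads rests on 5 animals in each genotype and was not tested. Among 43 other mitosis genes, which include kinesins and kinetochore proteins, the SD was also larger for all 43 (median 0.362 against 0.19), and ILK-deficient replicate 4 was the highest array for 39. Without ILK-deficient replicate 3 the SD remained larger for 13 of 14 mitotic genes, but for 6 of 11 replication genes, beside 35.8% of all probe sets. It was larger for 13 of 14 mitotic genes without replicate 4 (beside 36.3% of all probe sets). Without both it was larger for 11 of 14 (median 0.262 against 0.171, beside 33.3% of all probe sets). On the 7 arrays named D, 4 ILK-deficient and 3 ILK-expressing, it was larger for 14 of 14, beside 45.5% of all probe sets. The mitotic genes whose stretches with TTTGAA and CCAAT are shown above are among those that varied together across animals. Bub1 and Cdc25b, whose windows held no TTTGAA, varied in the same way. Bub1 was highest in ILK-deficient replicate 4 (10.35) and lowest in replicate 3 (9.35), as was Cdc25b (9.60 and 8.92). For the replication genes, of which 1 of 11 windows held TTTGAA, ILK-deficient replicate 3 was the lowest array for 11 of 11. On the probe set used, Cdkn1b, whose stretch also holds CCAAT, was instead highest in ILK-deficient replicate 3 (10.59), where most mitotic genes were lowest. The second Cdkn1b probe set did not share this contrast. It was highest in ILK-deficient replicate 4 (9.81), where mitotic genes were highest, and read 9.33 in replicate 3. The part of these letters in the variation was not tested.

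**Figure D3:**
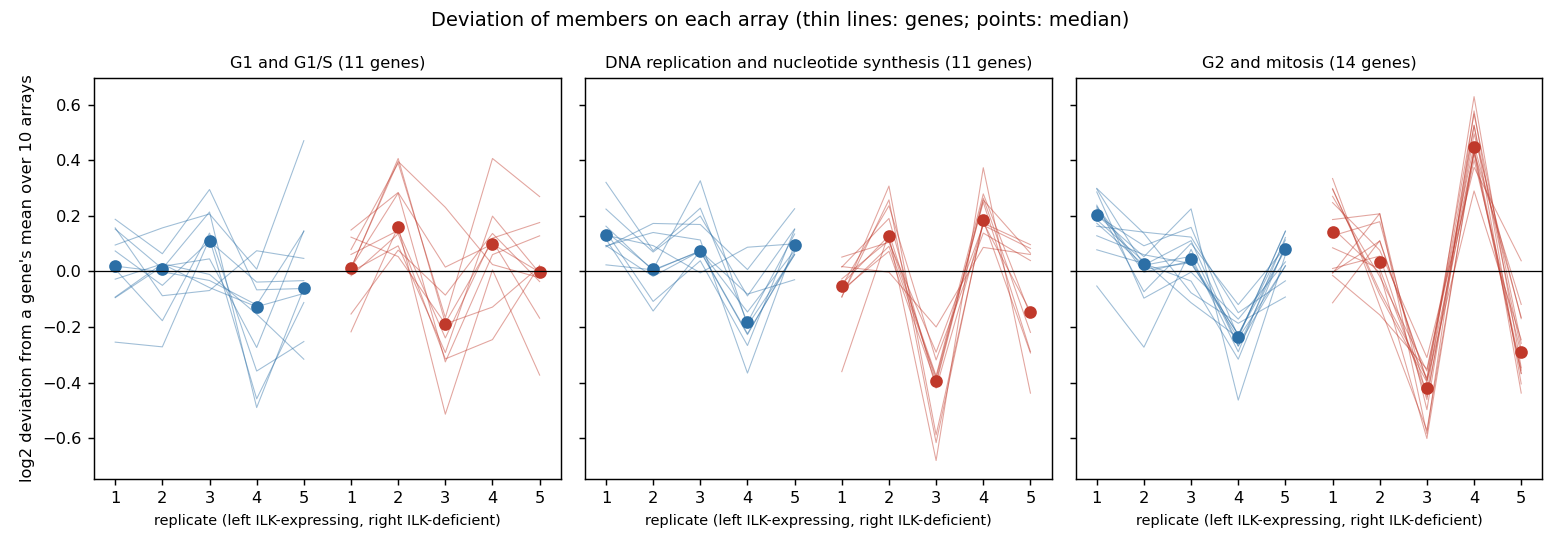
Deviation of each gene from its own mean over 10 arrays (log2), by array, for the G1, replication and mitotic classes; thin lines join the values of 1 gene within a genotype, in an arbitrary order of replicates, and points are class medians. In the mitotic panel ILK-deficient replicate 4 sits at a median of 0.45 and replicates 3 and 5 at -0.42 and -0.29.

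**Figure D4:**
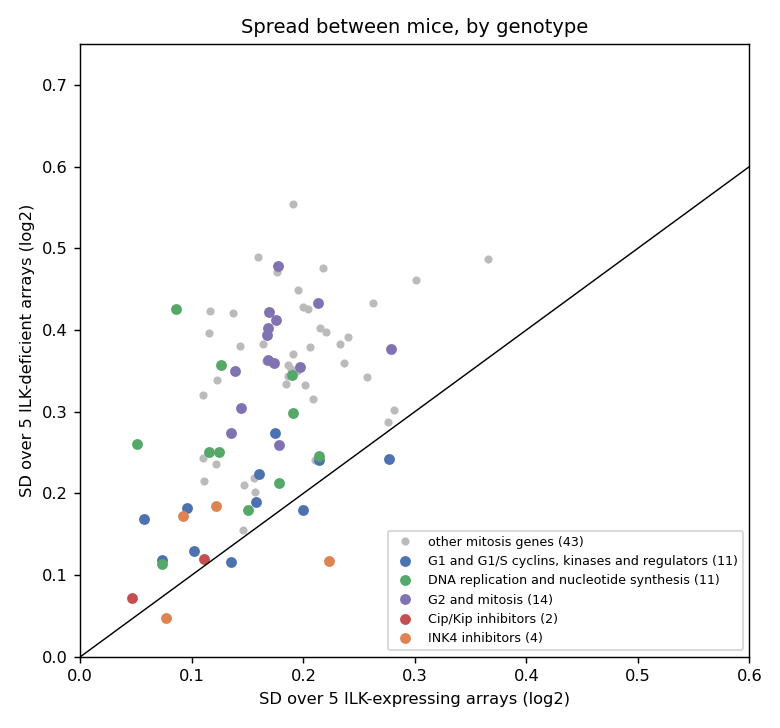
SD over 5 ILK-deficient arrays against SD over 5 ILK-expressing arrays (log2) for each gene, with the line of equal SD; the ILK-deficient axis runs to a higher value than the ILK-expressing axis. All 14 mitotic and 11 replication genes lie above the line, as do the 43 other mitosis genes in grey.

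Several measured features moved beside these array differences. Over all probe sets the median deviation of an array lay between -0.02 and 0.03, a balance that the quantile normalization of the deposited values sets. Both arrays named D' (ILK-expressing replicate 4 and ILK-deficient replicate 5) were low in mitotic genes, and both ILK-deficient replicates 3 and 4, named D, lay at the ends of the range. The 7 fibroblast markers, none of which passed the test between genotypes, had a median deviation of 0.33 in ILK-deficient replicate 3 and 0.23 in replicate 4, on opposite sides of the mitotic range. Markers of basal keratinocytes had medians of 0.12 and -0.15 in these arrays. Hair markers went in different directions. The list of 11 hair matrix and shaft genes had a median deviation of -2.00 in ILK-deficient replicate 4, where mitotic genes were highest, and of 2.87 in ILK-expressing replicate 4, where they were low. The sign of these medians followed the genotype on every array. They ran from -2.37 (replicate 1) to -0.86 (replicate 3) in ILK-deficient epidermis and from 0.58 (replicate 1) to 2.87 (replicate 4) in ILK-expressing epidermis. Shh, a signal of the hair matrix, was in contrast the highest of 10 arrays in ILK-deficient replicate 4 (9.45). Shh (8.04) and the matrix factor Lef1 (8.74) were the lowest of 10 in ILK-expressing replicate 4. The other 9 of the 11 hair genes were above their own mean over 10 arrays there. In ILK-deficient replicate 4, 2 of the 11 were above their own mean and 9 below. Immediate early genes also stood apart in ILK-deficient replicate 3, where Fos (11.47), Jun (12.79) and Junb (9.10) were the highest of 10 arrays, as were Gadd45b (10.43) and Btg1 (11.77). The part of these features in the spread was not tested.

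The wider cell cycle network was read from 7 further lists with 137 measured genes, of which 4 were called higher and 1 lower, beside 2.81% higher and 0.97% lower over all probe sets, so that calls in these lists were about as frequent as the background. None of 29 other replication genes and none of 43 other mitosis genes passed in limma, and 0 reached an unadjusted p under 0.05. In the replication list the largest differences were those of Tk1, thymidine kinase, with a log2 fold change of -0.39 (adjusted p = 0.361), and of Rfc5, a clamp loader subunit, with 0.11 (adjusted p = 0.684). In the mitosis list they were those of Cdca3, at -0.26 (adjusted p = 0.682), and of the spindle pole gene Aspm, at 0.21 (adjusted p = 0.746).

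Of the checkpoint kinases, Wee1 was higher in ILK-deficient epidermis with the largest difference among the 137. WEE1 places the inhibitory phosphate on CDK1 and so delays mitosis. Its log2 values were 10.10, 9.89, 10.07, 9.23 and 10.02 in ILK-expressing and 10.80, 11.08, 11.19, 10.74 and 10.84 in ILK-deficient replicates. The lowest ILK-deficient array was above the highest ILK-expressing one, and ILK-expressing replicate 4 was apart on the low side. The log2 fold change was 1.07 (SE 0.165, 95% confidence interval 0.70 to 1.43, limma adjusted p = 0.00779), or 2.10-fold, and the call held in all 20 alternatives, with adjusted p from 0.00209 to 0.0333. Atm, a kinase of the response to DNA breaks, gave 0.28 (adjusted p = 0.293).

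Of 14 E2F and pocket protein genes, 2 were called higher and 1 lower, a list too short to be set firmly against the 2.81% and 0.97% of all probe sets. Tfdp2, which encodes a dimerisation partner of E2F proteins, measured 9.68, 9.37, 9.29, 9.38 and 9.51 in ILK-expressing and 9.94, 10.00, 9.94, 10.07 and 10.01 in ILK-deficient replicates. The genotypes were apart, with a log2 fold change of 0.55 (SE 0.0764, limma adjusted p = 0.00537). Rbl2, which encodes p130, the pocket protein of quiescent and differentiated cells, measured 8.79, 8.77, 8.75, 8.70 and 8.88 in ILK-expressing and 9.10, 9.19, 9.28, 8.98 and 9.05 in ILK-deficient replicates. Here too all arrays of the genotypes were apart, and the log2 fold change was 0.34 (SE 0.0688, limma adjusted p = 0.0241). E2f2, an activating E2F, measured 8.11, 7.65, 8.22, 8.36 and 8.49 in ILK-expressing and 7.53, 7.67, 7.40, 7.66 and 7.45 in ILK-deficient replicates. ILK-expressing replicate 2 lay within the ILK-deficient range, and the log2 fold change was -0.62 (SE 0.141, limma adjusted p = 0.0382).

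These calls differed in how firmly they stood. Tfdp2 lost its call in 1 of 20 alternatives, the 7 arrays named D (adjusted p = 0.0686). Rbl2 lost it in 7 of 20, among them without ILK-deficient replicate 1 (adjusted p = 0.0538), ILK-deficient replicate 2 (0.0595), ILK-expressing replicate 3 (0.0515) or ILK-expressing replicate 4 (0.0641), with 0.139 as the highest adjusted p. E2f2 lost it in 14 of 20, including the removal of any single array other than ILK-expressing replicate 2, with adjusted p from 0.00766 to 0.294 over all alternatives.

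Among 17 measured genes of p53 and its targets, Fas, the gene of a death receptor, was called higher, with log2 values of 6.08, 6.18, 6.02, 6.21 and 5.93 in ILK-expressing and 6.38, 6.34, 6.42, 6.30 and 6.34 in ILK-deficient replicates. The genotypes were apart but close to the filter's minimum, with a log2 fold change of 0.27 (SE 0.0647, limma adjusted p = 0.0432), and the call was lost in 13 of 19 alternatives, the removal of any single array other than ILK-expressing replicate 4 included (adjusted p from 0.0166 to 0.19 over all). Trp53inp1 and the antiproliferative gene Btg2 had larger log2 fold changes, 0.67 and 0.65, which did not pass (adjusted p = 0.218 and 0.261). Both were highest in ILK-deficient replicate 3, at 11.72 and 12.45, as were 6 of the 17 genes in this list and 4 of the 11 regulators of G1 entry, among them the immediate early genes given above. The genotypes were narrowly apart for Trp53inp1, with a lowest ILK-deficient value of 10.381 and a highest ILK-expressing value of 10.379. In the p53 list they were apart for 4 of 17 genes, all higher, beside 6.33% of all probe sets in either direction. This list is too short to be set firmly against that share. Ccni, an atypical cyclin, and Ccnl1, a cyclin of the splicing machinery, gave 0.28 and 0.26 (adjusted p = 0.0534 and 0.261). The arrays of the genotypes were apart for Ccni, and it was called higher in 4 of 20 alternatives, with adjusted p from 0.0175 to 0.293. Of the regulators of entry into G1, Fos, an AP-1 subunit, gave 0.90 (adjusted p = 0.258) and Mycn, a MYC family factor, 0.73 (adjusted p = 0.19), and neither passed.

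**Figure D5:**
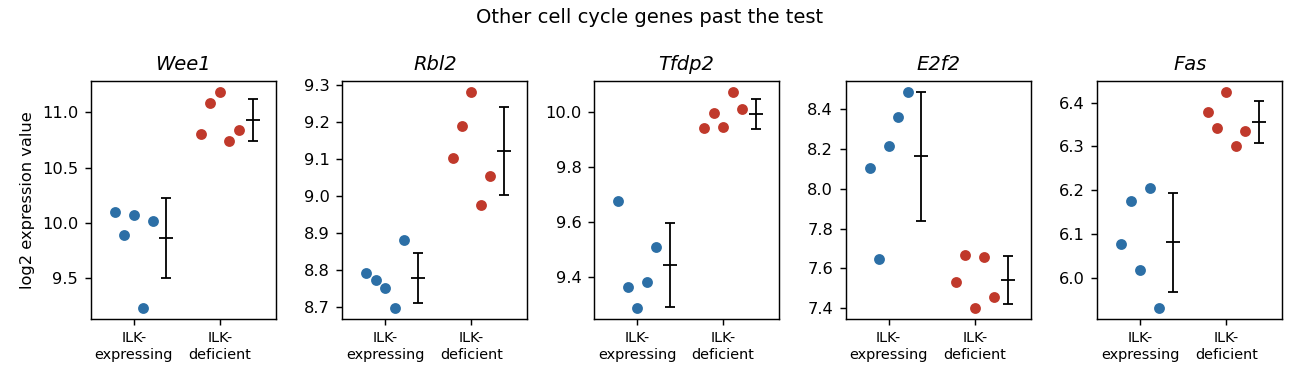
Log2 expression values of the 5 cell cycle genes outside the 44 that passed the test, 1 point per array, with the mean and SD of 5 arrays beside each genotype (each panel has its own vertical axis). The genotypes are apart for Wee1, Rbl2, Tfdp2 and Fas, and 1 ILK-expressing array lies within the ILK-deficient range for E2f2.

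Markers of some other cell types also differed between the genotypes, and stand here beside the values of Cdkn1b and the other called genes. Over all probe sets tested, 2.81% were called higher and 0.97% lower. A single call in a list this short cannot be set firmly against these shares. Markers of the outer root sheath were higher in ILK-deficient epidermis for 5 of 6 genes, among them Lgr5 (log2 fold change 1.64, limma adjusted p = 0.0084), and melanocyte markers were higher for 5 of 8. Of 11 hair matrix and shaft markers 6 were lower, all of them products of the differentiated shaft and inner root sheath (Krt31, Krt33a, Krt27, Krt25, Krt71 and Tchh, with log2 fold changes from -4.08 to -3.62). The other 5 did not pass, with 0.44 for Shh, 0.07 for Lef1, -0.11 for Foxn1, -0.69 for Hoxc13 and -0.92 for Msx2. In the sebaceous gland list 1 of 6 markers was lower. Basal keratinocyte markers split, with Trp63, the gene of the epidermal factor p63, higher by 0.35 (limma adjusted p = 0.0204) and Krt14 lower, with a log2 fold change of -0.23 (limma adjusted p = 0.0452), and none of 6 suprabasal markers passed. Of the immune markers 1 of 7 was higher, and none of 7 fibroblast and 5 endothelial markers was called. The part of these shifts in the values of Cdkn1b, Wee1, Tfdp2, Rbl2, E2f2 and Fas was not tested.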

How the data were processed

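RNA from the epidermis of 10 mice was hybridised by the authors to the Affymetrix Mouse Gene 1.0 ST array, 1 array per mouse. The deposited log2 values were background-adjusted, quantile-normalized and summarised per probe set; GC-RMA and RMA are both named in the methods, and it is not stated which produced the table. Groups and replicate numbers were taken from the labels. Each replicate is a separate mouse. The limma p-values set the genotype difference against a spread between mice that is pooled over both genotypes and moderated across probe sets.

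From these values, 32046 of 35556 probe sets with a linear value of at least 50 on at least 5 of 10 arrays were kept and fitted together by lmFit and eBayes of limma 3.58.1 (R 4.3.3), with genotype as the only term, Benjamini-Hochberg adjustment over all of them and a threshold of 0.05. The procedure was tested on simulated arrays in which probe sets varied independently, with the same SD in both genotypes. The mitotic and replication genes differ from this setting, since they moved together and their SDs were unequal. Exact permutation tests ran over all 252 splits of 10 arrays. Probe sets were named from the platform annotation, and 1 single-symbol probe set per gene was used, that with the highest mean. Array number limits the precision, and levels of different probe sets were not compared. Promoter windows came from RefSeq, build GRCm38.p6.

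The 44 genes and all other lists were chosen with earlier results of these data known. Values of every array are given for genes with an adjusted or unadjusted p under 0.05 or genotypes that do not overlap, and in each class for the largest log2 fold change and the smallest p; the values of Mki67, Cdk1 and Top2a, and those of single hair and immediate early genes, were added after the values had been seen. From each further cell cycle list, the genes past the threshold and the 2 with the largest log2 fold change are named; from the cell type lists, counts and a few examples. Alternatives were the filter, the scaling, the test, blocks for replicate number and name letter, the D arrays alone, averaging each gene's probe sets, and leaving out each array. Muscle and erythroid markers, with 4 genes tested, gave no call. Exon-level signals were not used here.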

Additional observations from a re-analysis of the deposited data

Results flagged for a closer look

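In 84 groups of 5 arrays, 1 for each of the 42 genes in each genotype, the highest or lowest array was compared with its nearest neighbour, and 9 stood apart by Dixon's criterion; chance alone marks about 1 in 20 such groups, and the genes move together, so the 9 are not independent. ILK-expressing replicate 4 was low on the log2 scale for Mcm5 (9.925), Mcm7 (9.854), Foxm1 (8.802), Plk1 (9.964) and Aurkb (9.846). ILK-deficient replicate 3 was low for Ccnd1 (11.54), Mcm4 (9.938) and Mcm5 (9.733). ILK-deficient replicate 4 was high for Cdkn2d (7.395). No explanation for these arrays was tested.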

How the results depend on the processing

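The direction of Cdkn1b was kept in all 20 alternatives and its call in 19, and no other member was called in any of them. On the 7 arrays named D, 0 members were called higher, and 294 probe sets passed in all, against 1211 over 10 arrays. Leaving out 1 array at a time gave 1 to 1 members called higher and 0 to 0 lower. For cell cycle genes outside the 44, 4 were called higher and 1 lower; these became 2 and 0 with arrays centred on their medians, 2 and 0 with the replicate block, and 1 and 0 on the D arrays, and 0 were called lower under the methods' ANOVA and with the name letter as a block. The count called higher was 5 when arrays were quantile-normalized again, with a trend and robust fit, under the methods' ANOVA and with probe sets averaged per gene, and Ccni gained a call in 4 of 20 alternatives. Leaving out 1 array gave 2 to 3 higher and 0 to 1 lower. The number of mitotic members with a larger SD in ILK-deficient epidermis ran from 13 to 14, and that of other mitosis genes from 36 to 43. Class medians of the log2 fold change ran from -0.03 to 0.12 (G1), -0.15 to 0.02 (replication), -0.15 to 0.07 (mitosis), 0.25 to 0.30 (Cip/Kip) and -0.01 to 0.08 (INK4). With a linear minimum of 100 the Cip/Kip median became 0.55, since Cdkn1c was no longer tested. An uncalled value changed sign under some alternative for 22 members, none of them above 0.14 in size afterwards. The cause of the other changes was not tested.

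Arrays of the 2 genotypes that carry the same replicate number did not deviate together: their correlations ran from -0.30 to 0.11, and 0 arrays correlated best with their own number. With the replicate block, 608 probe sets passed in place of 1211, Cdkn1b kept its call (adjusted p = 0.0266), and the counts of members called stayed at 1 and 0. The alternatives for genes outside the 44 and for the spread were added after the data had been seen. Values near the filter's minimum, such as those of Cdkn1c, Cdkn2a and Fas, limit what these arrays can show.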
